A study of Mus musculus with 17 samples.

Results

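Laminins are the large cross-shaped proteins that podocytes and other cells secrete into basement membranes, each made of an alpha, a beta and a gamma chain. In the developing glomerulus the basement membrane first holds the trimer of the Lama1, Lamb1 and Lamc1 chains, then Lama5 replaces Lama1 and Lamb2 replaces Lamb1, so that Lama5, Lamb2 and Lamc1 make the mature membrane. Loss of Lamb2 from this membrane causes a congenital nephrotic syndrome in mice and in people. The 9 genes described here are the chains Lama1 to Lama5, Lamb1 to Lamb3 and Lamc1, chosen by name and found by their Ensembl identifiers among the 56748 genes of the count table. All 9 were present in the table, and 6 of them passed the filter on low counts.

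The data are RNA-seq counts of E11, a line of murine podocytes, cultured on the silicone elastomer PDMS. The surfaces were HF, whose high fractal pattern follows traced histology of healthy glomeruli (6 libraries), RT, a round pattern that is not fractal (6 libraries), and NT, with no topography (5 libraries). RT serves as the control with a non-fractal pattern and NT as the control without one, and the series is titled as a study of podocyte maturation. No other treatment, time in culture or passage is given, all libraries come from 1 cell line, and what separates one replicate from another is not stated, so the p-values reflect only how much these libraries vary, and that variation may be technical.

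Library totals ran from 14.9 to 24.1 M counts. Of 8 podocyte markers 6 averaged at least 1 CPM (counts scaled by library size), among them Synpo at 263 ± 8.18 CPM on HF, 274 ± 5.87 CPM on RT and 282 ± 24.7 CPM on NT (SD, n = 6, 6 and 5). The podocyte gene Ptpro (at most 1 count in any library) was nearly absent. Of 5 endothelial markers 0 averaged as much as 1 CPM. Of 5 tubular markers 3 averaged at least 1 CPM, and their sums ran from 1458 to 1807 CPM on HF, 1517 to 1705 CPM on RT and 1419 to 1773 CPM on NT.

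The promoters are shown for Lama5, whose transcript rose on both topographies, for Lamb2, whose transcript fell on RT, and for Lamb1, the beta chain that precedes Lamb2. Each sequence is the stretch of 250 bases before the start of the gene in RefSeq (build GRCm38.p6), written 5′ to 3′ on the strand of the gene. Capitals mark matches to the motifs searched on both strands, which were the GC box with the letters GGGCGG, the promoter element with the letters TATAAA, the promoter element with the letters CCAAT, the TEAD motif GGAATG, the AP-1 motif TGANTCA, the core GCGNGGGNG of WT1 and EGR motifs, and the CArG box of SRF.
Lama5, chr2:180225860-180226109, minus strand: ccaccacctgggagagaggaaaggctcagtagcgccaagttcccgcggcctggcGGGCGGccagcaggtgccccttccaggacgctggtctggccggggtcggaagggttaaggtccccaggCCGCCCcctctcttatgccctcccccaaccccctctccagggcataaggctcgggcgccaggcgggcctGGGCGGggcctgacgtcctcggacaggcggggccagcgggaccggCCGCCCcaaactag
Lamb2, chr9:108479612-108479861, plus strand: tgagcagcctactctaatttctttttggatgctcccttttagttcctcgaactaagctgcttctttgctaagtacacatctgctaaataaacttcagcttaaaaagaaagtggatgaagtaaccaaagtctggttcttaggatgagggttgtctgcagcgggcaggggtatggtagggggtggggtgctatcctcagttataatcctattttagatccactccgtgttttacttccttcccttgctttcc
Lamb1, chr12:31265043-31265292, plus strand: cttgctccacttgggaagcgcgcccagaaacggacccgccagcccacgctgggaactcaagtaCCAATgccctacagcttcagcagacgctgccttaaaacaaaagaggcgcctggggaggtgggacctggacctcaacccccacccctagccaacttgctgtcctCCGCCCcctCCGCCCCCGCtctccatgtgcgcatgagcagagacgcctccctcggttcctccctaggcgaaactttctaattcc
The Lama5 window was 72.4% G and C with 19 CpG pairs, the Lamb2 window 43.6% with 3 and the Lamb1 window 62% with 14, beside medians of 52.4% and 6 over 32841 RefSeq windows of the same length. Lama5 held 4 matches to the GC box and Lamb1 held 2, a motif present in 32.7% of all windows. In Lamb1 1 of these matches overlaps its single match to the WT1 and EGR core, which 10.5% of windows hold, and CCAAT, found in 33.9% of windows, also occurred 1 time in Lamb1. The Lamb2 window held no match to any of the motifs. TATAAA, the TEAD motif, the AP-1 motif and the CArG box occur in 12.4%, 12.6%, 6.75% and 1.47% of all windows, and in none of these 3. Which start sites the cells use was not measured. Of the 9 chains 5 have an entry in this RefSeq table. Lama2 is among them but is not shown, since its RefSeq start matches only a transcript with a retained intron in GENCODE M21.

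The cells held mainly 5 chains. To compare genes, CPM were divided by the length in kilobases of the longest protein-coding transcript. On this per-length scale the order was Lamb2, Lamb1, Lama5, Lamc1 and Lama2 on every surface. Lamb2, the mature beta chain, stood at 117 ± 4.56 CPM per kilobase on HF, 111 ± 1.44 on RT and 124 ± 4.58 on NT (SD, n = 6, 6 and 5). Lamb1, the beta chain of the early membrane, followed at 104 ± 3.55 CPM per kilobase on HF, 105 ± 3.15 on RT and 97.3 ± 5.64 on NT. Lama5, the alpha chain of the mature membrane, stood at 50 ± 3.74 CPM per kilobase on HF, 49.7 ± 3.02 on RT and 42.3 ± 3.28 on NT. Lamc1, the gamma chain shared by the early and mature trimers, stood at 37.6 ± 1.17 CPM per kilobase on HF, 38.3 ± 1.43 on RT and 36.1 ± 2.73 on NT. Neighbours in this order did not overlap between libraries of a surface, except Lama5 (39.4 to 47.5 CPM per kilobase) and Lamc1 (32.0 to 39.6) on NT. Lama2, an alpha chain of muscle and of the mesangial matrix, was lower than these 4 at 5.75 ± 0.26 CPM per kilobase on HF, 6.34 ± 0.467 on RT and 6.73 ± 0.696 on NT. With all exonic bases as the length the order was kept, but Lamb1 stood at 60.9, 61 and 56.7 CPM per kilobase on HF, RT and NT, and Lama2 at 3.38, 3.73 and 3.96.

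**Figure D1:**
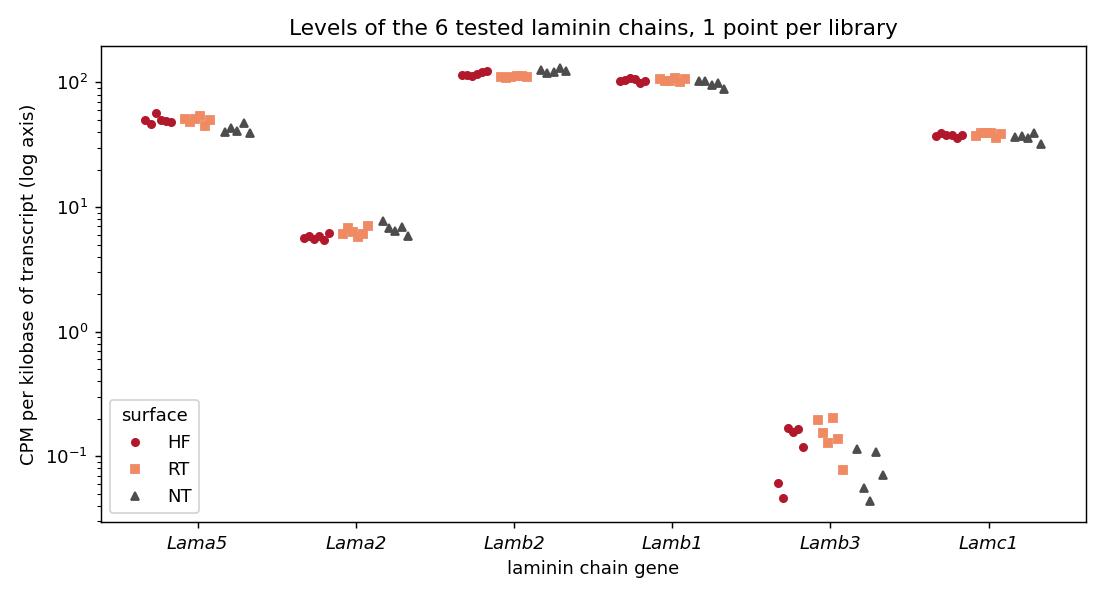
Levels of the 6 chains that passed the filter, as CPM per kilobase of transcript on a log axis, with 1 point for each library of HF, RT and NT (6, 6 and 5 libraries). Lamb2 and Lamb1 lie highest, Lama5 and Lamc1 below them, Lama2 lower again, and Lamb3 does not exceed 0.205 CPM per kilobase in any library.

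The alpha chain of the fetal glomerulus was nearly absent. Lama1 had 5 counts in all over the 6 HF libraries (exact Poisson 95% interval 1.62 to 11.7), 15 over the 6 RT libraries (8.40 to 24.7) and 3 over the 5 NT libraries (0.619 to 8.77), with at most 4 counts in a library. Lama3, an alpha chain of skin and other epithelia that pairs with Lamb3, had 14 counts on HF (7.65 to 23.5), 14 on RT (7.65 to 23.5) and 7 on NT (2.81 to 14.4). Lama4, an alpha chain of vessels that also occurs in the fetal glomerular membrane, had 2 counts on HF (0.242 to 7.22), 3 on RT (0.619 to 8.77) and 0 in the 5 NT libraries, which allows up to 3.69 counts. These intervals cover counting error only. These 3 chains did not pass the filter on low counts, so differences between the surfaces were not tested. Lama4 and Lama3 had overlapping intervals on the 3 surfaces. The intervals of Lama1 on RT and NT met between 8.40 and 8.77 counts, but these sums are not scaled for depth. They cover 6 RT libraries of 15.7 to 24.1 M counts and 5 NT libraries of 14.9 to 18.6 M. Scaled to CPM, Lama1 averaged 0.129 ± 0.0571 on RT and 0.0367 ± 0.053 on NT (SD), and the libraries of RT and NT overlapped. Lamb3, the beta chain that partners Lama3, was also low, with 4 to 14 counts per library on HF, 9 to 19 on RT and 4 to 9 on NT.

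Among the alpha chains Lama5 was higher on both topographies than on NT and Lama2 was lower on HF than on NT, with fold changes of 1.18, 1.18 and 0.855. Lama5 ranged from 525 through a median of 561 to 649 CPM on HF, from 508 through 574 to 611 CPM on RT, and stood at 458, 495, 467, 541 and 448 CPM in NT libraries 1 to 5. Library NT 4 lay above the lowest library of HF and of RT, and the other NT libraries lay below all libraries of HF and RT. The log2 fold change of Lama5 was 0.24 ± 0.05 for HF against NT (SE, edgeR adjusted p = 0.0164), 0.23 ± 0.05 for RT against NT (adjusted p = 0.0135) and 0.01 ± 0.05 for HF against RT (adjusted p = 0.988). Without NT 3 or NT 5 it passed neither for HF against NT (adjusted p = 0.0564 and 0.0722) nor for RT against NT (adjusted p = 0.05002 and 0.06985). The comparisons with NT share the same 5 NT libraries.

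Lama2 ranged from 52.5 through a median of 55.1 to 59.3 CPM on HF, from 55.1 through 59.7 to 67.2 CPM on RT, and stood at 74.2, 64.8, 61.8, 66.8 and 56.0 CPM in NT libraries 1 to 5. The 6 HF libraries lay below 4 of the 5 NT libraries, and NT 5 lay within the range of HF. Its log2 fold change was -0.23 ± 0.06 for HF against NT (SE, edgeR adjusted p = 0.0262), -0.14 ± 0.05 for HF against RT (adjusted p = 0.424) and -0.08 ± 0.06 for RT against NT (adjusted p = 0.489). The call for HF against NT was lost when NT 1, NT 2, NT 4, HF 1, HF 3, HF 4 or HF 5 was left out (adjusted p between 0.0530 and 0.0741). As Lama2 is known from mesangial matrix, 6 markers of smooth muscle, pericytes and mesangial cells were set beside it, with sums of 805 to 880 CPM on HF, 774 to 853 on RT and 677 to 771 on NT. Of this list only Pdgfrb (478 CPM on HF, 457 on RT and 478 on NT) and Acta2 (364 on HF, 363 on RT and 261 on NT) averaged at least 1 CPM, Ren1 was at 0 in every library and Itga8 had at most 5 counts. In bulk RNA, fewer cells of a type cannot be told apart from less RNA per cell, and the part of these markers in the Lama2 result was not tested.

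Of the beta chains Lamb2 was lower on RT than on NT, and Lamb1 and Lamb3 did not pass in any comparison. Lamb2 ranged from 632 through a median of 653 to 699 CPM on HF, from 614 through 620 to 635 CPM on RT, and stood at 704, 674, 683, 741 and 697 CPM in NT libraries 1 to 5. All 6 RT libraries lay below all 5 NT libraries, while HF 5 and HF 6 overlapped with NT. The log2 fold change of Lamb2 was -0.17 ± 0.03 for RT against NT (SE, edgeR adjusted p = 0.00182), and the call held when each of the 11 libraries was left out in turn (adjusted p at most 0.0114). It was -0.09 ± 0.03 for HF against NT (adjusted p = 0.190) and 0.08 ± 0.03 for HF against RT (adjusted p = 0.427), so a difference of HF from either surface was not shown.

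Lamb1 ranged from 572 through a median of 604 to 631 CPM on HF, from 579 through 608 to 627 CPM on RT, and stood at 590, 589, 547, 573 and 514 CPM in NT libraries 1 to 5. The groups overlapped in each comparison. Its log2 fold change was 0.10 ± 0.04 for HF against NT (SE, edgeR adjusted p = 0.142), -0.0026 ± 0.03 for HF against RT (adjusted p = 0.993) and 0.11 ± 0.04 for RT against NT (adjusted p = 0.101). Lamb3 averaged 0.579 ± 0.262 CPM on HF, 0.727 ± 0.230 CPM on RT and 0.384 ± 0.153 CPM on NT (SD, n = 6, 6 and 5), and its log2 fold change of 0.89 ± 0.38 for RT against NT (SE, edgeR adjusted p = 0.212) did not pass.

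**Figure D2:**
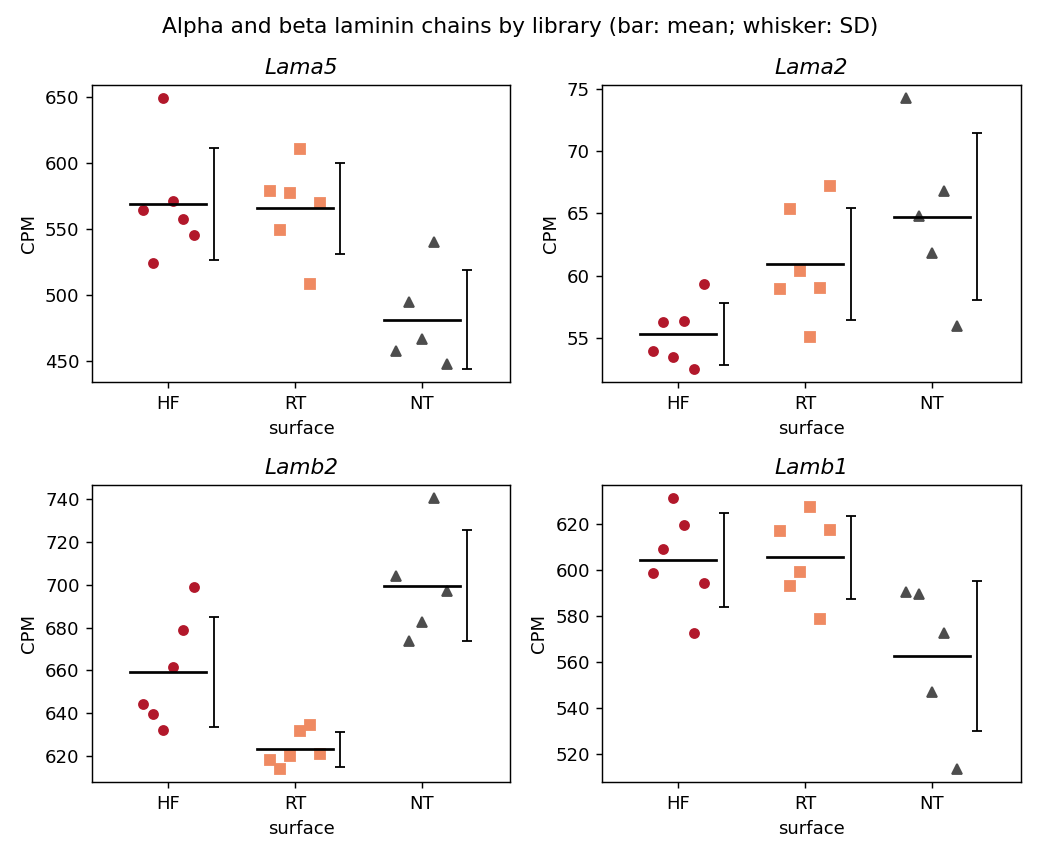
CPM of the alpha chains Lama5 and Lama2 and the beta chains Lamb2 and Lamb1 in each library of HF, RT and NT, with the mean as a bar and the SD as a whisker (n = 6, 6 and 5). The axes do not start at 0. Lama5 lies higher on HF and RT than in 4 of the 5 NT libraries, and Lamb2 on RT lies below every NT library.

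Lamc1, the gamma chain of both the early and the mature trimer, differed little. It ranged from 271 through a median of 288 to 298 CPM on HF, from 275 through 297 to 302 CPM on RT, and stood at 278, 282, 271, 302 and 244 CPM in NT libraries 1 to 5. The lowest value, in NT 5, lay apart from libraries that otherwise covered the same range. Its log2 fold change was 0.06 ± 0.04 for HF against NT (SE, edgeR adjusted p = 0.571), -0.03 ± 0.04 for HF against RT (adjusted p = 0.933) and 0.08 ± 0.04 for RT against NT (adjusted p = 0.268). Lamc3, a gamma chain that is not a member of the early or mature glomerular trimer, averaged 9.85 ± 3.05 CPM on HF, 8.28 ± 1.89 CPM on RT and 6.96 ± 3.68 CPM on NT (SD, n = 6, 6 and 5). It had a log2 fold change of 0.51 ± 0.33 for HF against NT (SE, edgeR adjusted p = 0.541).

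In all, 2 of the 6 tested chains passed for HF against NT, Lama5 upward and Lama2 downward, where 2.33% of the 15196 genes tested passed. For RT against NT 2 of 6 passed, Lama5 upward and Lamb2 downward, where 3.97% of all genes passed. For HF against RT 0 of 6 passed by edgeR, and 0 by DESeq2 and limma voom, where 0.211% of all genes passed, while 2 of the 6 (Lama2 and Lamb2) had an unadjusted p under 0.05, as did 8% of all genes. The libraries of the groups did not overlap for 1 of 6 chains for RT against NT (Lamb2), where this held for 3.4% of all genes. For HF against NT and HF against RT it held for 0 of 6 chains, and for 2.18% and 0.967% of all genes. The mature chains did not move together, since Lama5 rose on RT, Lamb2 fell there and Lamc1 did not pass. Of the chains outside the mature trimer, Lama2 fell on HF, and Lamb1 and Lamb3 did not pass in any comparison.

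**Figure D3:**
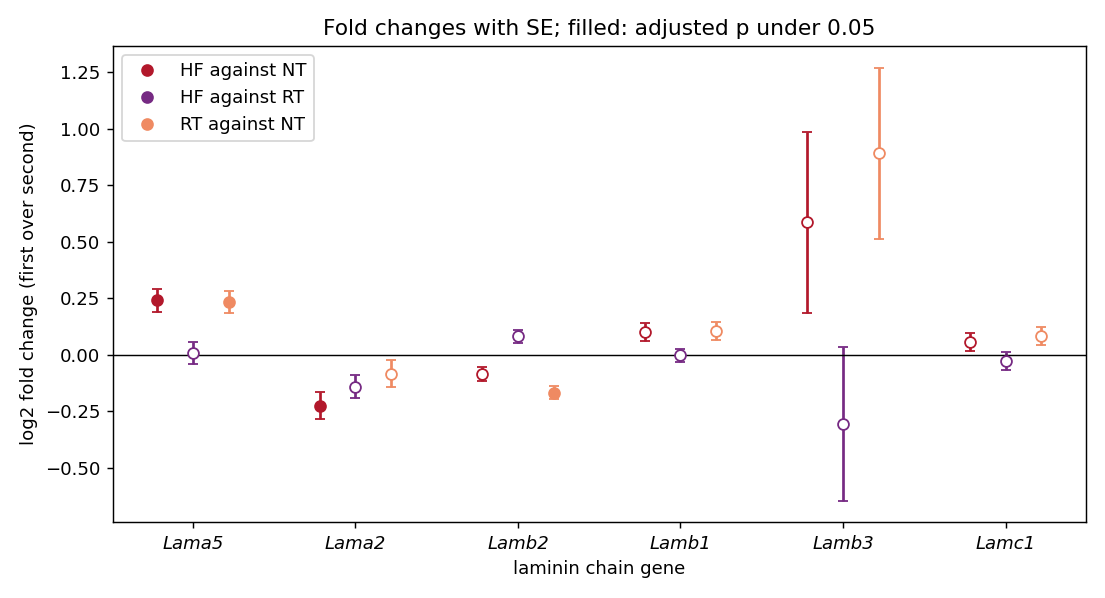
Log2 fold changes of the 6 tested chains with their SE in the 3 comparisons between surfaces, where a filled point has an adjusted p under 0.05. The filled points are Lama5 (0.24 and 0.23) above the line for HF and RT against NT, Lama2 (-0.23) below it for HF against NT and Lamb2 (-0.17) below it for RT against NT.

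Ratios between chains were formed within each library from CPM per kilobase, as a description with no test. The length used rescales a ratio of 1 chain to another alike in every library, whereas sums over chains also depend on the weight each length gives. The ratio of Lamb2 to Lamb1 ranged from 1.03 through a median of 1.10 to 1.22 on HF, from 1.03 through 1.05 to 1.13 on RT, and was 1.23, 1.17, 1.28, 1.33 and 1.40 in NT libraries 1 to 5. All RT libraries lay below all NT libraries, and on HF 4 of the 6 libraries did. Lamb2 made up 52.8 ± 1.64% of the beta chains on HF, 51.4 ± 0.852% on RT and 56.1 ± 1.66% on NT (SD, n = 6, 6 and 5). The level of such a ratio depends on the length used. With all exonic bases it averaged 1.78 ± 0.119 on HF, 1.68 ± 0.0583 on RT and 2.03 ± 0.137 on NT, and Lamb2 made up 64%, 62.6% and 67% of the beta chains, again with all RT libraries below all NT libraries.

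The ratio of Lama5 to Lama2 ranged from 7.77 through a median of 8.70 to 10.3 on HF, from 7.10 through 7.68 to 9.36 on RT, and was 5.21, 6.45, 6.37, 6.83 and 6.76 in NT libraries 1 to 5. Every library of HF and of RT lay above every NT library. On HF this ratio sets a chain called higher over another called lower in the same libraries, so it is no separate evidence. With all exonic bases as the length it averaged 14.8 ± 1.53 on HF, 13.4 ± 1.5 on RT and 10.7 ± 1.11 on NT, with the same separation. The following shares and sums use the longest protein-coding transcript as the length. Lama5 made up 89.6 ± 0.925% of the alpha chains on HF, 88.6 ± 1.07% on RT and 86.2 ± 1.35% on NT. The mature chains Lama5, Lamb2 and Lamc1 together made up 64.6 ± 0.932% of all 11 chains on HF, 63.8 ± 0.419% on RT and 65.8 ± 1.26% on NT. In this share all RT libraries (63.3 to 64.3%) lay narrowly below all NT libraries (64.4 to 67%), and HF overlapped with NT. This share was not computed with all exonic bases as the length. With the longest protein-coding transcript as the length, the summed beta chains were 3.99 ± 0.244 times the summed alpha chains on HF, 3.85 ± 0.173 times on RT and 4.53 ± 0.211 times on NT. All HF and RT libraries lay below all NT libraries, but narrowly, with the highest HF library at 4.22 and the lowest NT library at 4.24. With all exonic bases the HF and RT libraries also lay below all NT libraries.

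**Figure D4:**
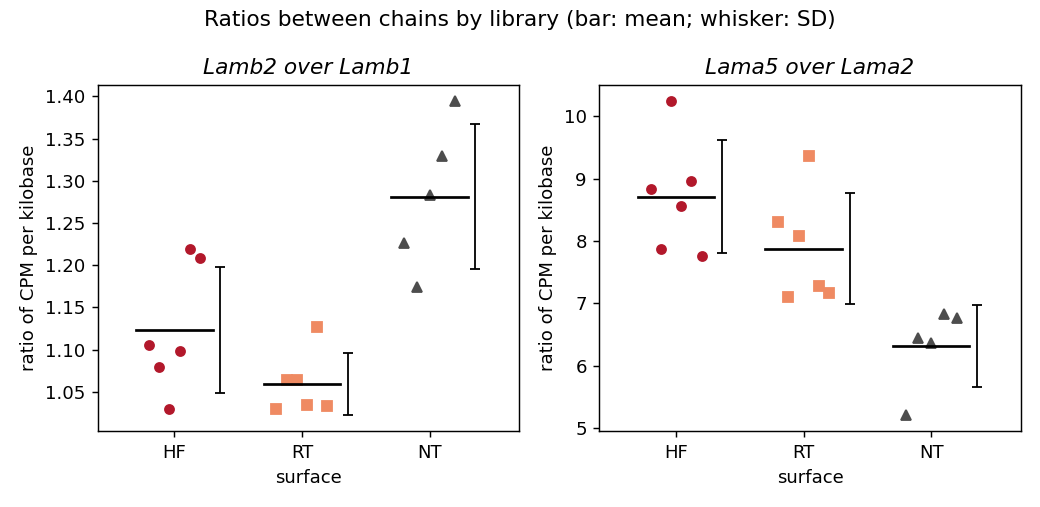
Ratios of Lamb2 to Lamb1 and of Lama5 to Lama2, each from CPM per kilobase in the same library, for HF, RT and NT with mean and SD (n = 6, 6 and 5). The axes do not start at 0. The beta chain ratio is lower on RT than in every NT library, and the alpha chain ratio is higher on HF and on RT than in every NT library.

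Among the other components of the basement membrane, which laminin polymers join through nidogen and heparan sulfate proteoglycans, 18 of 20 listed genes were tested. The median log2 fold change over the 18 for HF against NT was 0.17, beside -0.003 over all genes tested. In this comparison 1 of the 18 rose and 0 fell, where 2.33% of all genes passed. The gene was Hspg2 (perlecan, a heparan sulfate proteoglycan), which averaged 1083 ± 63.9 CPM on HF, 1089 ± 48.9 CPM on RT and 921 ± 74.6 CPM on NT (SD, n = 6, 6 and 5). Its log2 fold change was 0.23 ± 0.05 for HF against NT (SE, edgeR adjusted p = 0.00435), with all HF libraries above all NT libraries, and 0.24 ± 0.05 for RT against NT (adjusted p = 0.00190).

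For RT against NT the median log2 fold change over the 18 was 0.21, beside -0.002 over all genes. In this comparison 5 of the 18 rose and 0 fell, where 3.97% of all genes passed. Besides Hspg2 these included Agrn (agrin, the main heparan sulfate proteoglycan of the glomerular membrane) at 275 ± 12.8 CPM on RT and 243 ± 15.1 CPM on NT. Col18a1 (whose cleaved end is endostatin) stood at 3402 ± 105 CPM and 3043 ± 213 CPM, and Col4a5 (a collagen IV chain) at 700 ± 31.2 CPM and 593 ± 61.1 CPM (SD, n = 6 and 5). Of the collagen IV chains that did not pass, Col4a3 averaged 3.77 CPM on RT and 2.32 CPM on NT, and Col4a4 5.94 and 3.99 CPM. Col4a6 averaged 329 CPM on RT and 303 CPM on NT, and Col4a2 1344 and 986 CPM. These chains were named after their values were seen. Col4a1, a chain of the early collagen IV network and named after its values were seen, stood at 1395 ± 93.7 CPM on RT and 946 ± 210 CPM on NT, a log2 fold change of 0.56 ± 0.13 (SE, edgeR adjusted p = 0.0314). The count of 5 was 3 without NT 3, NT 5 or RT 1, 2 without RT 4 and 9 without NT 2. For HF against RT 0 of 18 passed by edgeR, DESeq2 and limma voom, where 0.211% of all genes passed by edgeR. Of the 18, 4 had an unadjusted p under 0.05, beside 8% of all genes. Their median log2 fold change was -0.07, beside -0.001 over all genes. The libraries of HF and RT did not overlap for 2 of the 18, Col4a1 and Sparc, both lower on HF, beside 0.967% of all genes. This held for 1 of 18 for HF against NT (Hspg2) and 1 of 18 for RT against NT (Col4a1), beside 2.18% and 3.4% of all genes. Sparc was named after its values were seen.

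**Figure D5:**
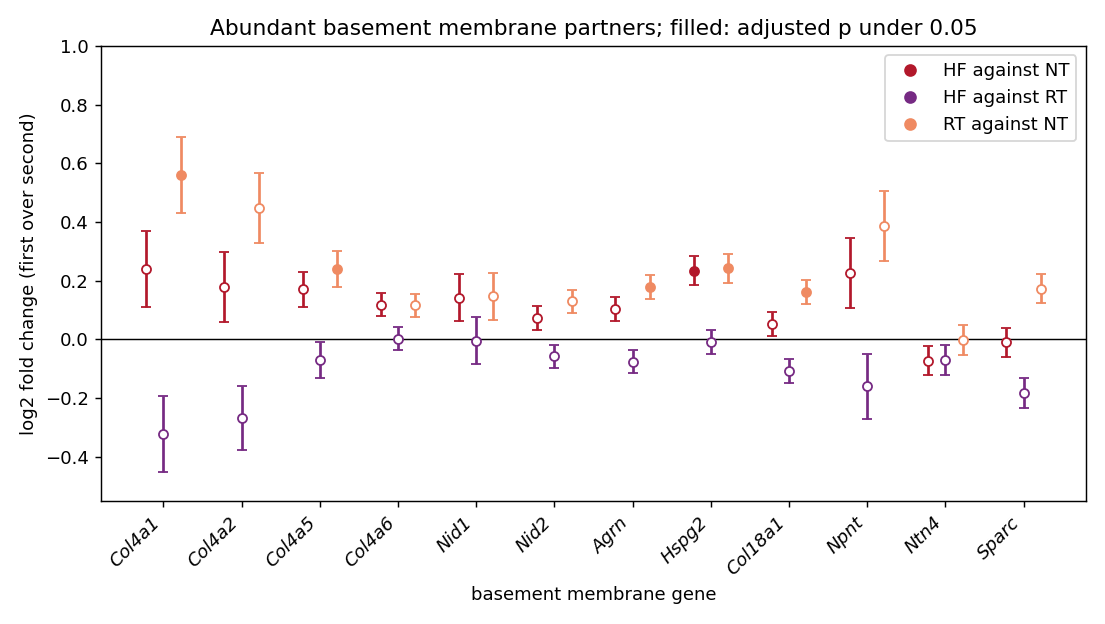
Log2 fold changes with SE of the 12 listed basement membrane genes that averaged at least 100 CPM, in the 3 comparisons between surfaces, where a filled point has an adjusted p under 0.05. Hspg2 is filled for both comparisons with NT, and Agrn, Col4a1, Col4a5 and Col18a1 are filled for RT against NT only.

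The receptors and anchors through which cells hold laminin had no called change by edgeR. Of these, Itga7, Itga2 and Itgb4 were low, at 0.569, 1.5 and 1.31 CPM on HF. Their log2 fold changes for HF against NT had SE of 0.41, 0.31 and 0.26, so a missing call says little for them. Of 17 tested genes 0 passed by edgeR in each comparison, beside 2.33% of all genes for HF against NT, 3.97% for RT against NT and 0.211% for HF against RT. At an unadjusted p under 0.05 were 4 in HF against NT, 2 in RT against NT and 4 in HF against RT, beside 14.2%, 17.1% and 8% of all genes. DESeq2 called Bcam for HF against NT and Sgce for RT against NT, and limma voom called 0 in each comparison. Sgce averaged 191 CPM on HF, 189 CPM on RT and 203 CPM on NT (edgeR adjusted p = 0.161 for HF against NT and 0.0638 for RT against NT). All HF and all RT libraries lay below all NT libraries for Sgce, the 1 of 17 without overlap in each comparison with NT, beside 2.18% and 3.4% of all genes. Dag1 (dystroglycan) averaged 1666 CPM on HF, 1776 CPM on RT and 1659 CPM on NT, and Itgb1 (the beta subunit of the main laminin integrins) averaged 1027 CPM, 1057 CPM and 1047 CPM. Itga3, the partner of Itgb1 in the chief laminin receptor of podocytes, stood at 615 ± 42.4 CPM on HF, 600 ± 24.1 CPM on RT and 568 ± 33.9 CPM on NT, with a log2 fold change of 0.12 ± 0.04 for HF against NT (SE, edgeR adjusted p = 0.169). Bcam, a receptor that binds the Lama5 chain, stood at 108 ± 8.18 CPM on HF, 118 ± 12.1 CPM on RT and 125 ± 4.20 CPM on NT, with a log2 fold change of -0.20 ± 0.06 for HF against NT (adjusted p = 0.0823). These receptors and anchors were named after their values were seen.

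The enzymes that build the laminin-binding sugar of dystroglycan likewise had 0 of 10 tested genes past the threshold in each comparison by edgeR. The shares of all genes were 2.33% (HF against NT), 3.97% (RT against NT) and 0.211% (HF against RT). At an unadjusted p under 0.05 there were also 0 of 10, beside 14.2%, 17.1% and 8% of all genes in the same order. Median log2 fold changes were -0.02 (HF against NT), -0.01 (RT against NT) and 0 (HF against RT). DESeq2 and limma voom also called 0. B4gat1 did not pass the filter. For this gene, 85.3% of its exonic bases overlap another annotated gene, so its counts are uncertain.

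Likeness to each mature chain was measured as Pearson's r of log2 CPM over the 17 libraries among 11077 genes, as a description, since the libraries share their surfaces and their depth. Lama5 was most like Hspg2 (r = 0.921), Sbf1 (0.877) and Arhgap11a (0.875). Lamb2 was most like Wt1 (r = 0.915), a transcription factor of podocytes, then Tns2 (0.890) and Sesn1 (0.885). Wt1 itself averaged 103 ± 5.22 CPM on HF, 96.9 ± 2.96 CPM on RT and 115 ± 3.02 CPM on NT (SD, n = 6, 6 and 5), which is the order of Lamb2. Lamc1 was most like Prrc2b (r = 0.871), Soga1 (0.859) and Prune2 (0.853).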

How the data were processed

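Poly-A RNA of 17 libraries was sequenced in pairs (2 x 150 bases, non-directional), per the labels' protocols. The deposited table holds raw counts per gene and library, which the authors did not normalize, per the file headers and values. CASAVA, HISAT2 2.0.5, featureCounts 1.5.0-p3 and the build GRCm39 are named without roles in the submitters' processing notes. The annotation release and the strand setting are not given in the sources used here, which leaves the counts of overlapping genes uncertain on both strands. Symbols, lengths and overlaps came from GENCODE M21 and promoters from RefSeq, both on GRCm38. No exon of Lama1, Lama4, Lama5, Lamb1, Lamb2, Lamb3 or Lamc1 overlaps another gene there, and overlaps cover 3.86% of Lama2 and 1.83% of Lama3.

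Genes were kept by filterByExpr (15196), scaled by TMM and tested with edgeR 4.0.16 (quasi-likelihood F test, robust) in 1 fit of 3 group means. Two-sided p-values were adjusted across these genes (Benjamini-Hochberg), and an adjusted p under 0.05 counted as a call. The SE of a log2 fold change is its size divided by the square root of F, and CPM use the TMM-scaled totals. The code was tested on simulated data. Alternatives were RLE scaling, no filter, DESeq2 1.42.0, limma 3.58.1 voom, only the compared groups, a replicate block and leaving out each library. The members, lists and tests were chosen with earlier results of these data known. All 9 chains are named; of other lists, up to 4 called genes with the smallest p per comparison, and for likeness the 3 highest correlations among genes averaging 1 or more in log2 CPM. Some genes of these lists are not reported here.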

Additional observations from a re-analysis of the deposited data

Results flagged for a closer look

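In groups of 5 or 6 libraries, a library was singled out where its gap to the nearest other library exceeded Dixon's 95% critical share of the group's range, which chance gives in about 1 of 20 groups, and 45 groups were examined. On RT, library RT 5 had the highest ratio of Lamb2 to Lamb1, 1.13, with the next at 1.06, and the lowest Hspg2 level, 996 CPM, with the next at 1085 CPM. On NT, library NT 1 had the lowest ratio of Lama5 to Lama2, 5.21, with the next at 6.37. On HF, library HF 6 had the lowest Col18a1 level, 2942 CPM, with the next at 3160 CPM.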

How the results depend on the processing

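The calls of Lama5 and Lama2 for HF against NT and of Lama5 and Lamb2 for RT against NT kept their direction and passed under RLE scaling, no filter, DESeq2, limma voom, only the compared groups and the replicate block. Leaving out 1 library at a time gave 1 to 2 called chains for HF against NT and 1 to 2 for RT against NT, and the log2 fold changes for HF against RT, near 0, ran from -0.03 to 0.03 for Lama5 and from -0.02 to 0.01 for Lamb1. It gave 1 to 2 called basement membrane genes for HF against NT and 2 to 9 for RT against NT, and 0 to 2 receptors in each of these comparisons. Without a filter, 2 receptors and 4 basement membrane genes passed for HF against NT, 9 basement membrane genes for RT against NT and 2 for HF against RT. DESeq2 called 1 receptor for HF against NT, 1 for RT against NT and 9 basement membrane genes for RT against NT, and limma voom called 8 basement membrane genes there. With only the compared groups, 1 receptor passed for HF against NT and 1 basement membrane gene for HF against RT. The causes were not tested. Over all genes, 354 passed for HF against NT, and 597 without a filter, 546 with DESeq2, 637 with the replicate block and 200 with only the compared groups. In RT against NT 603 passed, and 995 with the block. In HF against RT 32 passed, and 148, 84, 125 and 113 under the same settings as for HF against NT.

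With the replicate number as a block, 1 receptor and 3 basement membrane genes passed for HF against NT, 10 basement membrane genes for RT against NT, and Lamb1 for RT against NT (log2 fold change 0.11, adjusted p = 0.0343). Same-numbered libraries deviated together with correlations of 0.01 to 0.09 for HF and NT, -0.01 to 0.07 for HF and RT, and 0.01 to 0.19 for RT and NT, with 0 of 5, 0 of 6 and 2 of 5 pairs over 0.1. The numbers were not taken to pair the samples in the main fit. Over all genes the block gave more calls, 637 beside 354 for HF against NT, 995 beside 603 for RT against NT and 125 beside 32 for HF against RT. What a shared number stands for is not stated, and whether it pairs the samples was not tested. With all exonic bases as the length, chosen after seeing the data, the order of the 5 main chains was the same, but levels and ratios between chains moved, with Lamb1 at 60.9 CPM per kilobase on HF, 61 on RT and 56.7 on NT. Depth limits Lama1, Lama3 and Lama4, which hold at most 6 counts in a library.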
